A study of Mus musculus with 4 samples.

Results

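The intestinal metaplasia genes are 10 genes of intestinal fate and of enterocyte or goblet cells, taken by name with earlier results of these data known, among the 46095 gene symbols counted in the mouse stomach. They are the fate factors *Cdx1* and *Cdx2*, the goblet cell products *Muc2*, *Tff3* and *Spink4*, and the enterocyte products *Cdh17*, *Vil1*, *Alpi*, *Fabp1* and *Fabp2*. Gastric RNA of 2 WT and 2 MYC-KI mice, all C57BL/6 and 12 weeks of age, was sequenced. WT mice carried the conditional *Myc* fl/fl allele without Cre, and MYC-KI mice had the genotype *Atp4b-cre;MycOE* (*Atp4b-cre* with *Myc* fl/+), in which Cre driven by the promoter of *Atp4b* switches on human *c-Myc* in the parietal cell lineage only. The series describes its design as triplicate, and 2 libraries per genotype were analysed here. The study describes the controls as littermates, but the labels give no litter or animal for a sample, so no litter could be entered as a term and p-values measure the spread between these samples.

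Intestinal metaplasia is the replacement of gastric epithelium by cells of intestinal type, and it is regarded as a precancerous stage on the way to intestinal-type gastric cancer. *Cdx1* and *Cdx2* encode homeodomain transcription factors that set intestinal identity and are normally silent in the gastric corpus. Goblet cells secrete the gel-forming mucin MUC2 with the trefoil peptide TFF3, and enterocytes carry a brush border of villin-supported microvilli with digestive enzymes at its surface. The study stained the gastric mucosa and reported MUC2 in the epithelium of transgenic mice compared with WT. With its other stains it read this as intestinal metaplasia. The question addressed here is whether the transcripts of this programme differed between the genotypes. Bulk stomach RNA is a different measure from protein in sections of the mucosa.

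Every transgenic value below rests on a re-assignment of rows. The counts of both MYC-KI columns were read, row by row, against the same gene symbols placed in character-code order, in which capitals come before lower case, and the WT columns were left as deposited. All 10 members change row under this step, by 1 row for *Fabp1* and *Fabp2* and by up to 397 rows for *Tff3*, *Spink4* and *Vil1*. Over the 61 rows around each member, Pearson's r of mean log2(count + 1) between the genotypes lay between 0.955 and 0.992 after re-sorting. It lay between 0.024 and 0.673 when the transgenic counts were moved by 1 further row up or down, and between -0.057 and 0.524 in the deposited order. These correlations run across genes, which are not independent replicates. In the deposited table the transgenic counts listed beside *Muc2*, 7151 and 865, are those that re-sorting gives to its neighbour *Muc3*, for which the WT libraries held 6525 and 2273 counts. Those listed beside *Vil1* are 0 and 0, and re-sorting gives them to *Vmn2r-ps128*, a vomeronasal receptor pseudogene that also had 0 counts in both WT libraries.

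The libraries held between 30260305 and 41463647 counts. The genotypes were compared over 17643 genes by the quasi-likelihood test of edgeR, and a gene was called at a Benjamini-Hochberg adjusted p-value under 0.05 and a change of more than 1.5-fold. By this rule 1892 genes (10.7%) were called, 996 higher (5.65%) and 896 lower (5.08%) in MYC-KI. With library size in place of TMM scaling, which moved the median log2 fold change of all genes from 0.01 to 0.23, 2272 were called higher and 739 lower. The mouse *Myc* row had between 735 and 1091 counts in the 4 libraries, and the table has no row for human *MYC*. *Xist* had 17846 counts in WT replicate 2 and between 85 and 201 in the other libraries, and the Y-linked gene *Ddx3y* had 5 counts there and between 1861 and 2623 elsewhere, so WT replicate 2 was female by these genes and the other 3 libraries male. The gastric label was met in WT, where the proton pump gene *Atp4a* had 7684 and 7949 TMM-normalized CPM, the counts of a gene scaled to library size. In MYC-KI it had 138.5 and 187 CPM, and all 6 parietal markers were called lower.

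Of the 10 members 1 was called, a share near the 10.7% of all tested genes. *Spink4*, a serine peptidase inhibitor gene of goblet cells, was 3.43-fold higher in MYC-KI mice, while the other 9 members did not pass and their values overlapped between the genotypes. Over all genes both transgenic libraries lay above both WT libraries for 33.3% and below them for 31.5%. For 7 of the 10 members both WT libraries lay between the transgenic libraries, and over all tested genes this held for 10.5%. Transgenic replicate 1 was the highest of the 4 libraries for 7 members and transgenic replicate 2 was the lowest for 9, against 29.8% and 22.0% of all genes. Beside the plot of the members by library, the values are taken up by role.

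**Figure D1:**
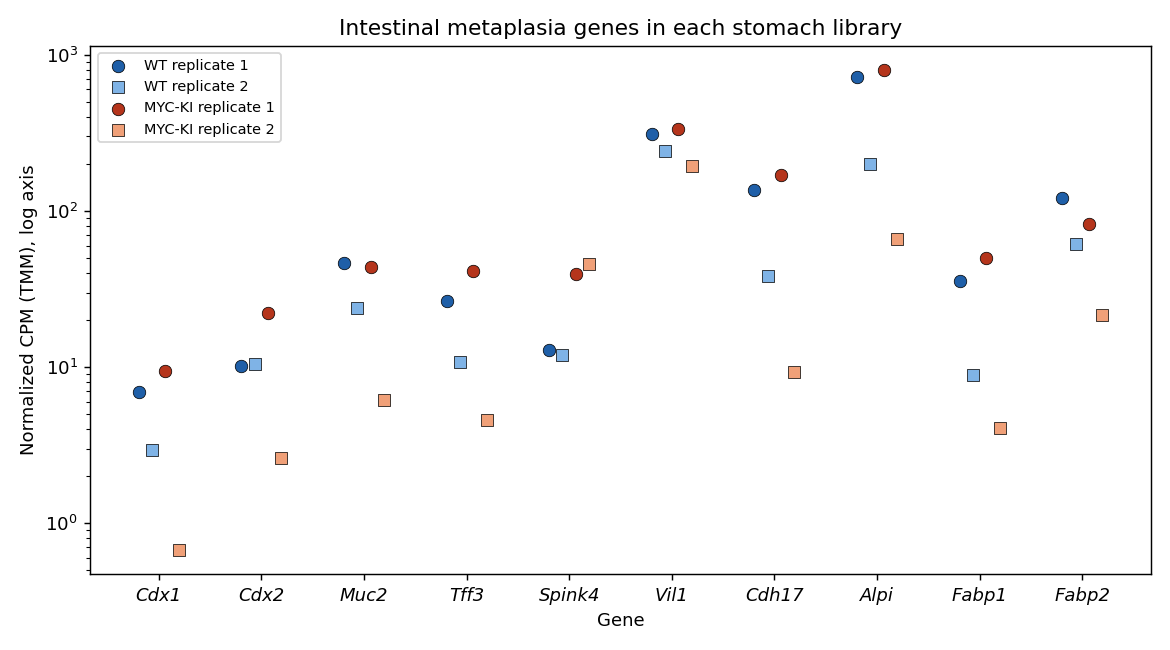
TMM-normalized CPM of the 10 intestinal metaplasia genes (log axis) in each library, circles for replicate 1 and squares for replicate 2, dark and light blue for WT, red and orange for MYC-KI. The square of MYC-KI replicate 2 is the lowest point of every gene but *Spink4*, where both MYC-KI libraries, at 39.5 and 46.0, lie above both WT libraries, at 12.9 and 12.0.

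The fate factors were low in every library. *Cdx2* (chromosome 5, 147300805 to 147307270, minus strand, mm10) had counts of 343 and 289 in the WT libraries and of 755 and 117 in MYC-KI, or 10.2, 10.4, 22.3 and 2.62 normalized CPM. The ratio of the WT libraries was 0.987, and the transgenic ones lay 8.50-fold apart on either side of them. The log2 fold change of MYC-KI over WT was 0.27 (standard error 0.97, edgeR adjusted p = 0.873), with a 95% interval from -2.35 to 2.89. The direction was set by which transgenic library was kept. Without MYC-KI replicate 1 *Cdx2* was called lower, with a log2 fold change of -1.97 (adjusted p = 0.0283 from edgeR), and without MYC-KI replicate 2 it was called higher, with 1.11 (adjusted p = 0.0270). In these fits the genotype left with 1 library is assumed to vary like the other.

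*Cdx1*, on chromosome 18, had counts of 233 and 82 in the WT libraries and of 319 and 30 in MYC-KI. On the normalized scale this was 6.94 and 2.94 CPM in WT and 9.41 and 0.672 in MYC-KI. Replicate 1 was thus 2.36-fold above replicate 2 in WT and 14.0-fold in MYC-KI, and the order of the libraries was that of *Cdx2* apart from the WT pair. The fitted log2 fold change was 0.02 (standard error 1.23, adjusted p = 0.992, edgeR).

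Among the goblet cell products, *Muc2* (chromosome 7, 141690340 to 141754693, plus strand) encodes the gel-forming mucin of intestinal mucus. It had counts of 1553 and 663 in the WT libraries and of 1485 and 273 in MYC-KI, or 46.3, 23.8, 43.8 and 6.11 CPM. WT replicate 1 was the highest library and transgenic replicate 2 the lowest. The log2 fold change was -0.49 (standard error 0.96, adjusted p = 0.757, edgeR), with an interval from -3.06 to 2.08. *Tff3* (chromosome 17, 31125306 to 31129646, minus strand), the intestinal trefoil factor secreted with MUC2, had counts of 889 and 298 in the WT libraries and of 1402 and 204 in MYC-KI, or 26.5, 10.7, 41.3 and 4.57 CPM. As for the fate factors, the transgenic libraries were the highest and the lowest of the 4. Its log2 fold change was 0.30 (standard error 1.08, adjusted p = 0.873, edgeR).

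*Spink4* (chromosome 4, 40920052 to 40931395, plus strand) stood apart from both. It had counts of 434 and 335 in the WT libraries and of 1341 and 2057 in MYC-KI, or 12.9, 12.0, 39.5 and 46.0 CPM. Both transgenic libraries were above both WT libraries, which held for 1 of 10 members and for 33.3% of all genes, whereas both were below for 0 members and for 31.5% of all genes. The libraries of each genotype were close to each other. The means were 12.5 ± 0.654 CPM (SD, n = 2) and 42.8 ± 4.60 (SD, n = 2). *Spink4* rose by 1.78 on the log2 scale (standard error 0.13, interval 1.42 to 2.14, adjusted p = 0.0161 from edgeR). Its fold change moved little when a library was left out, between 1.66 and 1.89, but the call was lost without WT replicate 1 (1.83, adjusted p = 0.196) or WT replicate 2 (1.72, adjusted p = 0.232), fits in which edgeR called 0 genes at all (3554 and 3410 genes at an unadjusted p under 0.05). With the replicate number as a block the adjusted p was 0.0541 at the same fold change.

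The goblet cell products differed in their proportions within a library. For each count of *Muc2* there were 0.279 and 0.505 counts of *Spink4* in WT and 0.903 and 7.53 in MYC-KI. For each count of *Tff3* there were 0.488 and 1.12 in WT and 0.956 and 10.1 in MYC-KI. The ratio was highest in transgenic replicate 2, where *Muc2* and *Tff3* were lowest, while transgenic replicate 1 lay above both WT libraries for *Muc2* and between them for *Tff3*.

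**Figure D2:**
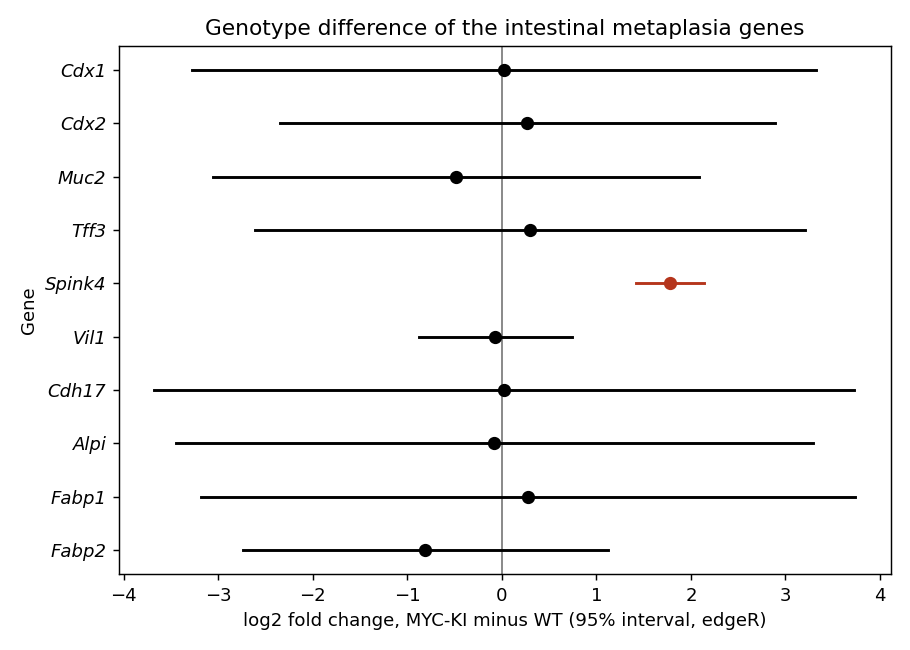
Log2 fold change of MYC-KI over WT for each gene (points) with its 95% interval from edgeR (bars), red for the called gene. Only the interval of *Spink4*, from 1.42 to 2.14, does not include 0, and those of the other 9 genes reach from as low as -3.68 to as high as 3.74.

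Of the structural enterocyte genes, *Vil1* (chromosome 1, 74409376 to 74435559, plus strand) encodes villin, the actin-bundling protein of microvilli. It had counts of 10466 and 6719 in the WT libraries and of 11298 and 8626 in MYC-KI, or 312, 241, 333 and 193 CPM. The 4 libraries were within 1.72-fold of each other. Its log2 fold change was -0.07 (standard error 0.30, interval -0.88 to 0.74, adjusted p = 0.893, edgeR), which made it the most narrowly bounded of the members that were not called. Exons of *Usp37* on the opposite strand overlap *Vil1* in the annotation, and the library strand is not given in the sources used here. *Cdh17* (chromosome 4, 11758147 to 11817895, plus strand), the liver-intestine cadherin of the lateral membrane, had counts of 4585 and 1062 in the WT libraries and of 5723 and 415 in MYC-KI, or 137, 38.1, 169 and 9.29 CPM. The 18.2-fold gap between its transgenic libraries was the widest among the members. The log2 fold change was 0.02 (standard error 1.38, adjusted p = 0.991, edgeR).

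*Alpi* (chromosome 1, 87098002 to 87101606, minus strand) encodes an intestinal alkaline phosphatase of the brush border. Per length of exon it had the highest mean of the members over the 4 libraries, although in transgenic replicate 2 its 28.4 CPM per kilobase lay below *Spink4* (96.5) and *Vil1* (54.4). It had counts of 24036 and 5532 in the WT libraries and of 27096 and 2966 in MYC-KI, or 716, 198, 799 and 66.4 CPM. Replicate 1 of either genotype exceeded replicate 2 of either genotype, by 3.61-fold within WT and 12.0-fold within MYC-KI. The log2 fold change was -0.08 (standard error 1.26, interval -3.45 to 3.29, adjusted p = 0.972, edgeR). *Alpi* has a close paralog in *Akp3*, between which reads may be split.

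The fatty acid binding protein genes followed. *Fabp1* (chromosome 6, 71199827 to 71205023, plus strand), whose product carries fatty acids in proximal enterocytes and in hepatocytes, had counts of 1199 and 247 in the WT libraries and of 1706 and 181 in MYC-KI, or 35.7, 8.85, 50.3 and 4.05 CPM. It had the order of libraries seen for *Alpi*. Its log2 fold change was 0.28 (standard error 1.29, adjusted p = 0.900, edgeR). *Fabp2* (chromosome 3, 122895072 to 122899506, plus strand), the intestinal form, had counts of 4075 and 1717 in the WT libraries and of 2806 and 968 in MYC-KI, or 121, 61.5, 82.7 and 21.7 CPM. Here WT replicate 1 was highest, and the log2 fold change of -0.81 (standard error 0.72, interval -2.74 to 1.12, adjusted p = 0.483, edgeR) was the lowest of the members.

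Levels were compared between genes as CPM per kilobase of exon. The mean over the 4 libraries was 190.4 for *Alpi*, 76.0 for *Vil1*, 74.4 for *Fabp2*, 57.9 for *Spink4*, 44.7 for *Fabp1* and 42.1 for *Tff3*. It was 19.7 for *Cdh17*, 5.03 for *Cdx2*, 4.21 for *Muc2* and 2.85 for *Cdx1*. The ranges over libraries of each gene and the next in this order overlapped. Within every library, however, *Tff3* lay above *Cdh17*, *Cdh17* above *Cdx2* and *Muc2* above *Cdx1*, while the other neighbours changed places in at least 1 library. This order pools the genotypes, between which *Spink4* differed, at 27.1 and 25.2 CPM per kilobase in WT and 82.9 and 96.5 in MYC-KI. By the means of each genotype *Spink4* was number 6 of the 10 members in WT and number 2 in MYC-KI, while *Alpi* was number 1 in both. The exon length is the union over annotated transcripts, and the annotation used for counting is not given in the sources used here.

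Outside *Spink4*, the members differed more between the MYC-KI libraries than between the genotype means. Replicate 1 was at least 2-fold above replicate 2 in both genotypes for 5 of the 10 members (*Cdx1*, *Tff3*, *Cdh17*, *Alpi* and *Fabp1*), and for 1.58% of all tested genes. The order MYC-KI replicate 1, WT replicate 1, WT replicate 2, MYC-KI replicate 2 from high to low was shown by 6 members, those 5 and *Vil1*, and by 3.06% of all genes. The 8 members other than *Spink4* and *Vil1*, set apart after their values were seen, were 3.82 to 18.2-fold apart between the transgenic libraries. Their ratio between the WT libraries was 0.987 to 4.04. Transgenic over WT was 0.681 to 2.18 for replicate 1 and 0.228 to 0.458 for replicate 2, although the labels do not say that the replicate numbers mark paired animals.

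**Figure D3:**
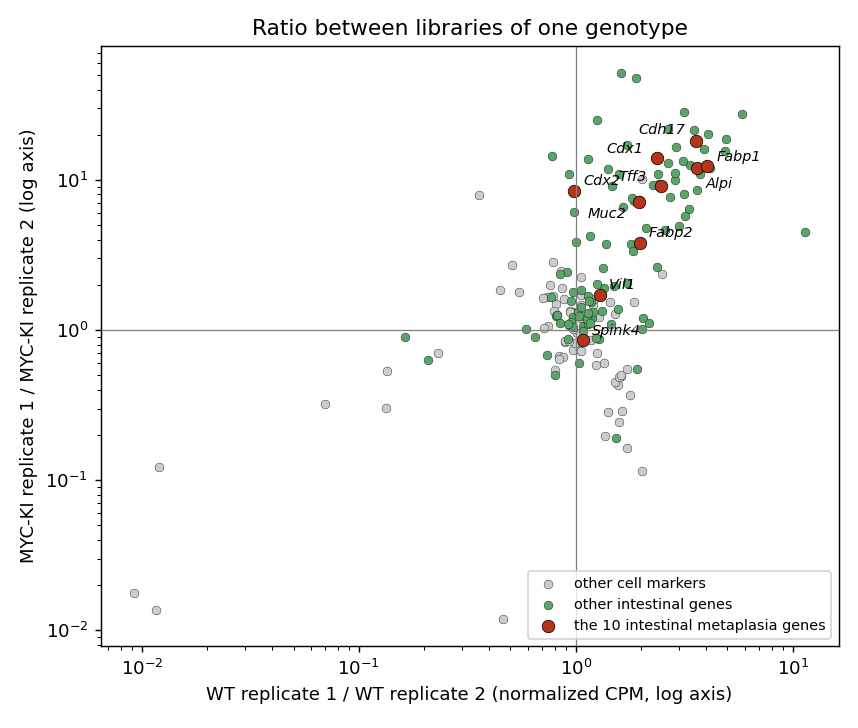
Ratio of replicate 1 to replicate 2 in normalized CPM within WT (horizontal, log axis) and within MYC-KI (vertical, log axis) for the 10 members (red), the other intestinal genes (green) and the markers of other cells (grey). Members lie in the upper right part, up to 4.04 in WT and 18.2 in MYC-KI, apart from *Spink4* near 1 on both axes and *Cdx2* at 0.987 in WT.

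Some members kept a nearly fixed proportion while their levels moved. For each count of *Alpi*, there were 0.0499 and 0.0446 counts of *Fabp1* in WT, against 0.0630 and 0.0610 in MYC-KI, a 1.41-fold range, while *Alpi* itself ranged over 12.0-fold in CPM. *Cdh17* had 0.191 and 0.192 per *Alpi* count in WT and 0.211 and 0.140 in MYC-KI, a 1.51-fold range. *Tff3* ranged over 1.86-fold, *Muc2* over 2.19-fold and *Fabp2* over 3.15-fold by the same measure, which was not taken for *Cdx1* and *Cdx2*. *Vil1* per *Alpi* ranged over 6.97-fold and *Spink4* over 38.4-fold, with the highest value of both in transgenic replicate 2. The 4 libraries are too few for a correlation, and ratios to 1 gene share its counting and library.

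**Figure D4:**
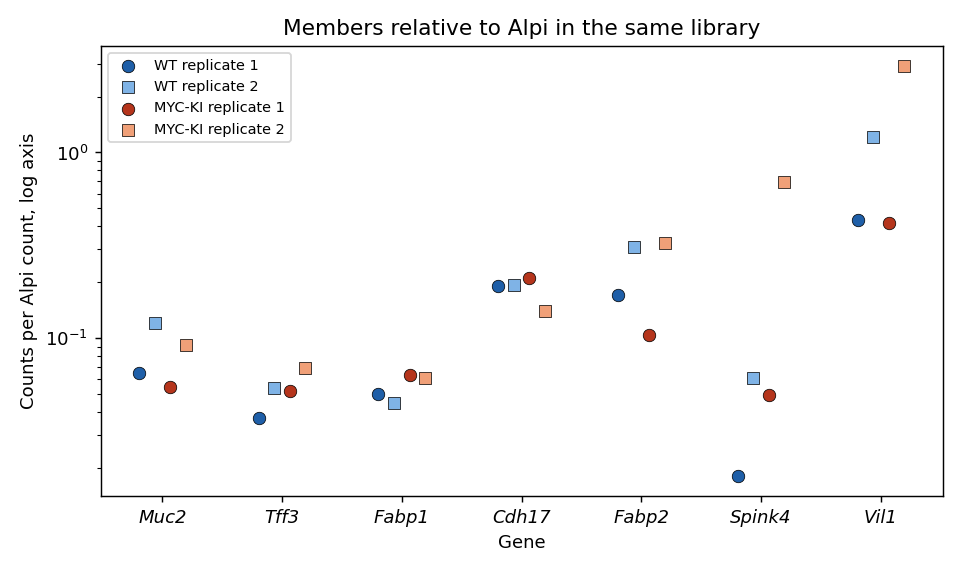
Counts of 7 members for each *Alpi* count in the same library (log axis), symbols by library. *Fabp1* and *Cdh17* stay within 1.41-fold and 1.51-fold over the 4 libraries, whereas *Spink4* ranges over 38.4-fold and *Vil1* over 6.97-fold.

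The sequence before the gene start is shown for *Alpi* and *Fabp1*, which kept their proportion, and for *Vil1* and *Cdx2*. The ratios of *Vil1* and *Cdx2* between the WT libraries (1.29 and 0.987) were smaller than the 3.61 of *Alpi*. Those of *Muc2* (1.95) and *Fabp2* (1.97), which hold the core marked below but are not printed, were smaller too. Between the MYC-KI libraries the ratio was 8.5 for *Cdx2* and 12.0 for *Alpi*. The printed lines are examples, and the core was not tested against the library pattern. RefSeq promoters of the assembly GRCm38.p6 were matched for 6 of the 10 members (*Cdx2*, *Muc2*, *Vil1*, *Alpi*, *Fabp1* and *Fabp2*). Each line gives 120 bases, 5′ to 3′ on the strand of the gene, ending before the more upstream of the RefSeq and GENCODE starts, at chr1:87101607-87101726 for *Alpi* (minus), chr6:71199707-71199826 for *Fabp1* (plus), chr1:74409256-74409375 for *Vil1* (plus) and chr5:147307271-147307390 for *Cdx2* (minus). Capitals mark TTTAT or its reverse complement ATAAA, the core that CDX factors are known to bind.
Alpi: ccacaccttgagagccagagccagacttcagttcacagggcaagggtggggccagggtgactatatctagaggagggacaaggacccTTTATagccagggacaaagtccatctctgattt
Fabp1: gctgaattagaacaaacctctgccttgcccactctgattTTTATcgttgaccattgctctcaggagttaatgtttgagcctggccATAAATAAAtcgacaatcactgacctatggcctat
Vil1: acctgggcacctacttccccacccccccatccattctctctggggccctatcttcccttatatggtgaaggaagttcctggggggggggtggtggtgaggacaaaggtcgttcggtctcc
Cdx2: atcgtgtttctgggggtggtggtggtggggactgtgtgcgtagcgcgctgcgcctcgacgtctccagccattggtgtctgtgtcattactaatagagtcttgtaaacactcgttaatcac

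Over the 250 bases before the RefSeq start, the core TTTAT (either strand) occurred 5 times in *Fabp1*, 2 times in *Muc2* and once each in *Alpi* and *Fabp2*, and was not found in *Vil1* or *Cdx2*. It stood in 4 of 6 members and in 37.3% of 32851 promoters of the same length. The core is also part of TATA boxes, and whether the match 33 bases before the start of *Alpi* belongs to one was not tested. GATAA, the GATA factor core, stood in 2 of 6 members (*Muc2* and *Fabp1*) and in 22.6% of promoters on either strand. The HNF1 core GTTAAT stood in 2 of 6 (*Cdx2* and *Fabp1*) and in 6.43%. CAAAGTCCA, bound by HNF4, stood in *Alpi* only, 19 bases before its start, and in 0.384% of promoters. A match describes these letters and was not tested for binding.

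Other genes of the intestinal programme were read from 8 lists with 111 genes, of which 104 were tested. Of these, 3 (2.88%) were called higher and 5 (4.81%) lower in MYC-KI, against 5.65% and 5.08% of all genes. Their median log2 fold change was -0.15, that of the 10 members 0.02 and that of all genes 0.01. The genes called higher were *Klf5* (a zinc finger factor of crypt cells), *Slc10a2* (the ileal bile acid transporter) and *Muc4* (a membrane mucin). With the replicate number as a block, 0 of the 104 were called higher and 1 lower, against 0.153% and 0.493% of all genes. *Klf5* had 128 and 118 CPM in WT and 271 and 254 in MYC-KI, a rise of 1.09 on the log2 scale (standard error 0.09, adjusted p = 0.0176, edgeR). *Muc4* rose by 1.61 (standard error 0.24, adjusted p = 0.0308), from 98.2 and 152 CPM to 361 and 400. *Slc10a2* had counts of 1 and 4 in the WT libraries and of 163 and 341 in MYC-KI, a log2 fold change of 6.17 with an interval from 4.23 to 8.10 (adjusted p = 0.0228), and its size rests on those few WT counts.

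The genes called lower were *Gata4*, *Pls1*, *Cd36*, *Fcgbp* and *Ccl6*. *Gata4*, a factor of gastric and proximal intestinal epithelium, fell by 0.89 on the log2 scale (standard error 0.09, adjusted p = 0.0201, edgeR), from 320 and 342 CPM to 186 and 172. *Fcgbp*, a component of goblet cell mucus, fell by 1.45 (standard error 0.14, adjusted p = 0.0198), from 481 and 389 CPM to 149 and 168. *Cd36*, a fatty acid transporter of several tissues, fell by 3.06 (adjusted p = 0.0245), from 152 and 189 CPM to 13.7 and 27.2. *Pls1*, the microvillus bundler plastin 1, fell by 0.70 (adjusted p = 0.0416), and the chemokine gene *Ccl6* fell by 1.08 (adjusted p = 0.0287). The direction with more calls on these lists changed with the MYC-KI library left out. Such fits leave 1 library in that genotype, which is assumed to vary like the other genotype.

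Most digestive enzymes of the brush border shared the library order of *Alpi*, which *Anpep*, *Dpp4*, *Mgam* and *Tmprss15* did not. None of 14 was called, whereas 10 of 14 were at least 2-fold higher in replicate 1 than in replicate 2 in both genotypes (1.58% of all genes) and 10 had the order of *Alpi* over the 4 libraries (3.06% of all genes). All 14 were lowest in transgenic replicate 2. *Akp3*, an alkaline phosphatase of the duodenum and the gene with the highest CPM of them, had 1718 and 439 CPM in WT and 1754 and 109 in MYC-KI. *Tmprss15*, which encodes the duodenal enteropeptidase, had 17.5 and 4.98 CPM in WT and 13.5 and 0.627 in MYC-KI, with WT replicate 1 the highest. *Sis*, sucrase-isomaltase, had 56.2, 21.1, 64.4 and 2.96 CPM, and both were named after their values were seen. Of the transporters, 10 of 15 had that order, among them the iron exporter gene *Slc40a1*, the highest of its list in CPM, with 171, 50.6, 178 and 14.2 CPM.

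The same order over the libraries was counted on the other lists. It was shown by 5 of 13 tested lipid genes, 5 of 14 brush border genes, 5 of 14 goblet cell genes, 3 of 14 intestinal factors, 3 of 10 stem cell genes and 1 of 10 Paneth cell genes, and the differences between lists were not tested. *Apoa1*, the lipid gene with the highest CPM, had 943 and 1008 CPM in WT and 261 and 23.7 in MYC-KI (log2 fold change -2.78, standard error 1.14, adjusted p = 0.173, edgeR). The gene with the highest mean CPM, a scale not corrected for length, was *Klf4* among the factors, with 639 and 616 CPM in WT and 308 and 513 in MYC-KI, and *Ezr* among the brush border genes, with a log2 fold change of -0.54 (adjusted p = 0.0590). It was *Clca1*, a goblet cell secreted protein gene, among the goblet genes (0.06, adjusted p = 0.900), *Sox9* on the Paneth list (0.51, adjusted p = 0.475) and *Prom1* on the stem cell list (0.77, adjusted p = 0.0559). Per kilobase of exon other genes led 3 of the 8 lists, with mean CPM per kilobase of 751 for *Agr2* against 309 for *Clca1*, 53.1 for *Reg3b* against 35.4 for *Sox9* and 21.9 for *Slc5a1* against 11.5 for *Slc40a1*. The antimicrobial lectin genes *Reg3b* and *Reg3g* of the Paneth list were named after their values were seen. *Reg3b* had 6.67 and 3.69 CPM in WT and 205 and 26.9 in MYC-KI and was not called (adjusted p = 0.0726, edgeR). *Reg3g*, at 8.19 and 0.717 CPM in WT and 136 and 30.2 in MYC-KI, was not called either (adjusted p = 0.111, edgeR).

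**Figure D5:**
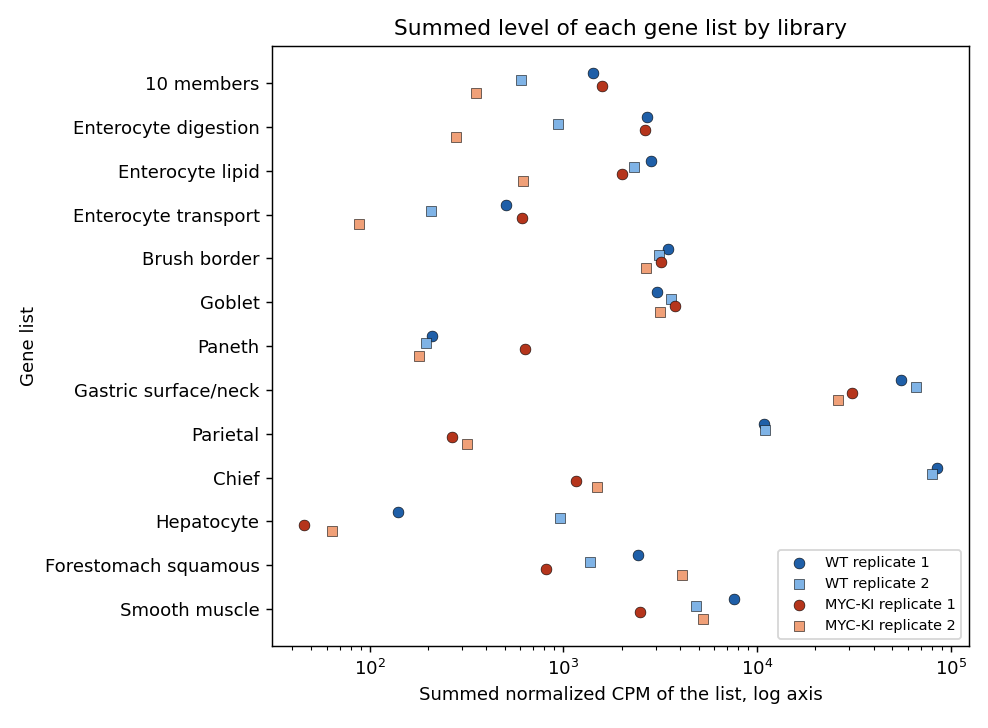
Summed normalized CPM of each gene list (log axis) in the 4 libraries, symbols by library. The members and the enterocyte digestion and transport lists are lowest in MYC-KI replicate 2, next lowest in WT replicate 2, and highest in the replicate 1 libraries, while the parietal and chief cell lists separate the genotypes.

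Markers of other cells were summed beside these results. The 10 members summed to 1425 and 607 CPM in WT and 1590.1 and 354.5 in MYC-KI. The 10 hepatocyte markers summed to 140.1 and 959 CPM in WT and 45.9 and 64.0 in MYC-KI, with *Alb* at 183 and 12700 counts in WT. WT replicate 2 thus had the highest hepatocyte sum, and a part of hepatocyte RNA in the values of *Fabp1* was not tested. The 8 forestomach squamous markers summed to 2420.0 and 1374 CPM in WT and 812 and 4122 in MYC-KI, and the 6 smooth muscle markers to 7640.1 and 4827 in WT and 2479.5 and 5269.7 in MYC-KI. Transgenic replicate 1, with the highest member sum, had the lowest sum on both lists. Of 13 pancreatic acinar markers, 4 to 5 were at 0 counts in each library, among them *Cpa1*. Of the 7 tested, 3 were called lower (*Cela1*, *Cela2a* and *Sycn*) and 0 higher, against 5.08% and 5.65% of all genes. Counts were low for *Cela2a* (20 and 18 in WT, 0 and 0 in MYC-KI) and *Sycn* (78 and 69 in WT, 18 and 18 in MYC-KI). The 13 summed to 263 and 225 CPM in WT and 131 and 152 in MYC-KI, most of it *Cela1*, with 247 and 211 CPM in WT and 124 and 145 in MYC-KI. Of 4 tested intestinal hormone genes, 1 had the order of *Alpi*, the duodenal *Gip*, with 3.04 and 1.51 CPM in WT and 3.18 and 0.313 in MYC-KI. *Cck* and *Sct* had other orders and were not called, and *Gcg* was called lower (log2 fold change -1.44, adjusted p = 0.0427, edgeR).

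Beside *Spink4*, 3 of 6 tested tuft cell markers (*Dclk1*, *Trpm5* and *Pou2f3*) and 3 of 6 markers of spasmolytic polypeptide-expressing metaplasia (*Wfdc2*, *Clu* and *Dmbt1*) were called higher, and 4 of 5 chief cell markers were called lower, against 5.65% of all genes called higher and 5.08% lower. Of 9 genes of gastric identity, 4 were called lower, namely the surface cell products *Muc5ac* (log2 fold change -2.46), *Gkn2* (-1.88), *Gkn1* (-1.73) and *Tff1* (-1.23), and 4 were not called. The gastric factor gene *Sox2* was the only one called higher, with 20.1 and 20.0 CPM in WT and 76.5 and 80.0 in MYC-KI (adjusted p = 0.00897, edgeR). The part of these cells, and of the amount of intestinal tissue in each library, in the values of the members was not tested. In such bulk RNA, fewer cells of a type and less RNA per cell cannot be told apart.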

How the data were processed

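Stomach RNA of 2 WT and 2 MYC-KI mice was sequenced. The authors deposited 1 table of raw read counts per gene symbol, 1 column per sample, without normalization; the processing notes of the submitters name HISAT2 and mm10, and the counting tool and annotation are not given in the sources used here. Every column was mapped by its name. The transgenic counts were re-assigned to sorted names as described above. The members, the gene lists and this re-sorting were chosen with earlier results of these data known.

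The genotypes were compared by the two-sided quasi-likelihood test of edgeR 4.0.16 (R 4.3.3), with TMM scaling, genes kept by filterByExpr and genotype as the sole term. Standard errors were taken as the size of the log2 fold change over the root of the F statistic, and intervals are 95% intervals on the degrees of freedom of the test. The fit was checked on simulated counts. Alternatives were DESeq2 1.42.0, other scalings, filters and thresholds, a replicate block, the table as deposited and leaving out each library. Gene positions and exon lengths came from GENCODE M21 (GRCm38, the build mm10).

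All 10 members are named. From each intestinal list the text names up to 3 called genes in each direction and the gene with the highest mean CPM. With 30260305 to 41463647 counts per library a count of 0 allows up to 3 counts, for counting error only. The lowest count of a member was 30.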

Additional observations from a re-analysis of the deposited data

How the results depend on the processing

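*Spink4* was called in edgeR's fits with other scalings and filters and with DESeq2, and its direction was the same under each alternative, the deposited order included. The number of members called was 0 with the replicate block, where 0.153% of all genes were called higher and 0.493% lower. It was 9 in the deposited order, where 42.7% of all genes were called higher and 41.5% lower. Over all genes, 3232 were called by DESeq2, 3011 with library size alone, 1113 at 2-fold, 114 with the block, 18580 as deposited and between 0 and 2470 without 1 library. Of 110 other intestinal genes, DESeq2 called 6 higher and 8 lower (5.62% and 6.47% of all genes), the fit with no filter 6 and 7 (4.96% and 4.83%) and the deposited order 21 and 68 (42.7% and 41.5%). Of 104, library size alone gave 5 higher and 4 lower (12.9% and 4.19%), 2-fold 3 and 3 (2.63% and 3.68%) and the block 0 and 1 (0.153% and 0.493%). Without 1 library, 0 to 12 were called higher and 0 to 19 lower.

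The sign of 8 of the 9 uncalled members reversed under at least 1 alternative, and that of *Fabp2* under none (-2.08 to -0.15 without 1 library). With the block it reversed for *Cdx1* (-0.77), *Cdx2* (-0.40), *Tff3* (-0.27), *Cdh17* (-0.84) and *Fabp1* (-0.29), and with library size alone for *Vil1* (0.15) and *Alpi* (0.14). As deposited it reversed for *Cdx1* (-10.4), *Muc2* (1.75), *Tff3* (-5.39), *Cdh17* (-9.19) and *Fabp1* (-6.52). Without 1 library the log2 fold changes ranged from -2.87 to 0.92 for *Cdx1*, -1.97 to 1.11 for *Cdx2*, -2.52 to 0.32 for *Muc2*, -2.03 to 1.15 for *Tff3*, -3.23 to 1.22 for *Cdh17*, -0.52 to 0.27 for *Vil1*, -2.78 to 1.12 for *Alpi* and -2.46 to 1.62 for *Fabp1*. The cause was not tested.

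The labels do not say that a replicate number marks a shared litter, and the numbers were not taken to pair the samples. Deviations of same-numbered libraries had a correlation of 0.063 over 17643 genes, and 0.026 without the intestinal genes.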
